A study of Danio rerio with 4 samples.

Results

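During the maternal-to-zygotic transition, the mRNAs that the mother loads into the egg are degraded while transcripts of the embryo's own genome accumulate. Maternal mRNAs differ widely in how long they persist, from those cleared soon after genome activation to those still present when gastrulation ends. Shortening of the poly(A) tail by deadenylases is a main step of this clearance, and many of the mRNAs concerned encode proteins of the oocyte, the germ plasm and the rapid cleavage divisions.

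The transcripts described here were very abundant in the blastula and partly reduced at the end of gastrulation. A transcript was a member when it reached at least 200 TPM (a transcript's abundance after scaling for its length, as parts of a library total of 1000000) in both sphere samples and at least 2 TPM in both bud samples, and when its mean at sphere was 4 to 16 times its mean at bud. Of the 24573 protein-coding transcripts in the table, 117 met this rule. The rule used all 4 samples, so the difference of the members between the stages is given as a description, with no test, and other measurements of these transcripts were not analysed here.

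The samples were whole wild-type zebrafish embryos of the TLAB strain, a cross of the Tupfel Longfin and AB lines, in unperturbed growth. Embryos were taken at sphere (4 hpf, hours post-fertilization), a blastula stage at which the genome is being activated, and at bud (10 hpf), the end of gastrulation, with 2 replicates per stage and 50 pooled embryos per sample. Total RNA was sequenced after depletion of ribosomal RNA. TPM values keep no read counts, so counting error is not given here, and a lower TPM is a lower share of the mRNA pool and not a number of molecules per embryo. In pools of whole embryos, fewer cells of a type and less RNA per cell cannot be told apart. Both stages follow the onset of genome activation and no earlier sample is used here. Whether a member was of maternal or early zygotic origin therefore cannot be told. The table lists Ensembl transcript identifiers, and gene symbols were attached to 1580 transcripts, 15 of them members. The other 102 members are given by identifier only. The labelled stages could not be checked, since none of the 4 blastula and none of the 13 end-of-gastrulation marker genes had a symbol. Of 3 germ plasm markers 2 had one, but these mark germ cells and not a stage.

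A total of 718 transcripts reached 200 TPM in both sphere samples, and the members were 16.3% of them. Among these abundant transcripts, 304 stayed within a factor of 2 between the stages, 148 were 2 to 4 times higher at sphere, 75 were more than 16 times higher at sphere, and 74 were more than 2 times higher at bud. These classes and the rule use the same ratio, so the place of the members between them is fixed. The group of steady or mildly reduced transcripts on one side was large, and the group with larger differences on the other was smaller.

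**Figure D1:**
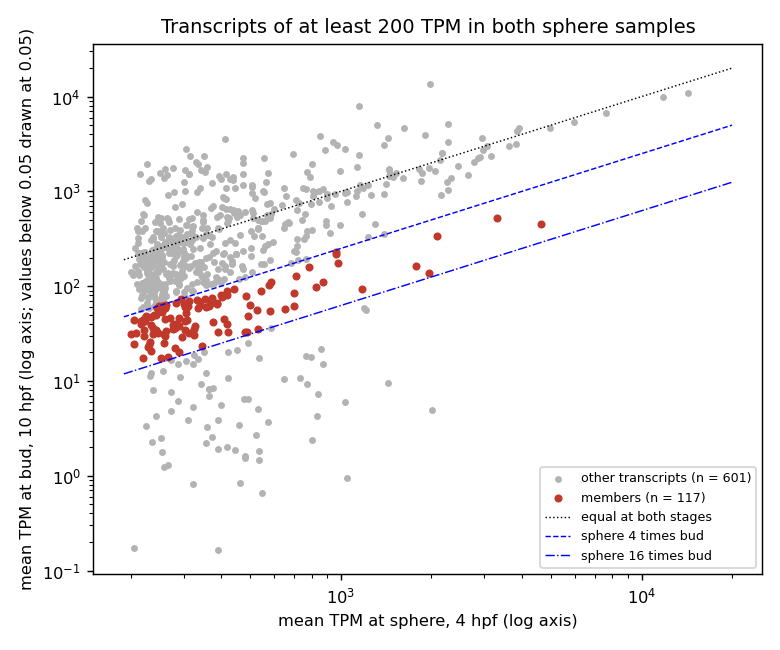
Mean TPM at sphere (horizontal, log axis) against mean TPM at bud (vertical, log axis) for the 718 transcripts of at least 200 TPM in both sphere samples. The 117 members, in red, fill the band between the lines at which sphere is 4 and 16 times bud, and the other transcripts, in grey, lie mostly above it.

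At sphere, the 117 members lay between 200 and 5863 TPM in replicate 1, with a median of 288 TPM, and between 200 and 5063 TPM in replicate 2, with a median of 317 TPM. At bud, they lay between 16.3 and 553 TPM in replicate 1, with a median of 48.5 TPM, and between 17.3 and 884 TPM in replicate 2, with a median of 50.1 TPM. The median of all transcripts fitted was 10.4 TPM at bud, and the rule itself holds the bud mean of every member above it. In the order of all 24573 transcripts by stage mean, the members ran from position 6 to position 790 at sphere, with a median of 409. At bud they ran from position 268 to position 7979, with a median of 3576, and 28 of the 117 were still among the 2457 most abundant transcripts.

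The ratio of the sphere mean to the bud mean had a median of 6.37 over the members, with quartiles at 5.03 and 9.05. Ratios from 4 to 5 were found for 29 members, from 5 to 6 for 24, from 6 to 8 for 25, from 8 to 12 for 27 and from 12 to 16 for 12. Most members thus kept a ratio in the lower part of the allowed range, with 78 of 117 below 8. When single samples were paired in place of stage means, the median ratio was 6.37 for sphere replicate 1 over bud replicate 1 and 6.46 for sphere replicate 1 over bud replicate 2. It was 6.75 for sphere replicate 2 over bud replicate 1 and 6.66 for sphere replicate 2 over bud replicate 2. In all 4 pairings, 96 of the 117 members kept a ratio from 4 to 16.

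**Figure D2:**
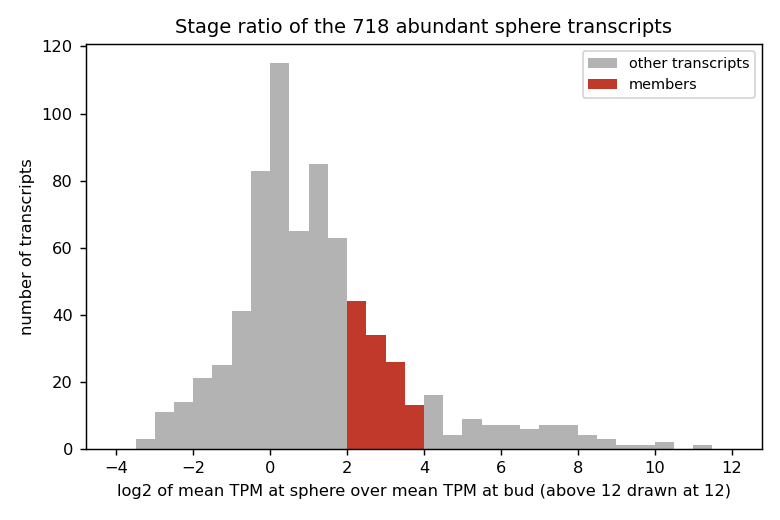
Number of abundant sphere transcripts (vertical) by log2 of the ratio of mean TPM at sphere to mean TPM at bud (horizontal), in bins of 0.5 for the 718 transcripts. The 117 members, in red, lie on the falling right shoulder of a distribution whose bulk, in grey, is near equal levels, and 75 transcripts lie beyond them at ratios over 16.

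Together the members held 5.51% and 5.49% of all TPM in sphere replicates 1 and 2, and 0.762% and 0.824% in bud replicates 1 and 2. Their summed level was 6.94 times higher at sphere than at bud. Of the summed fall in mean TPM over all transcripts with a lower mean at bud, the members accounted for 11.2%. The rule bounds the ratio of 6.94 and in part sets this share, so both are descriptions. A fall in TPM is a fall in share of the pool. The weight was uneven within the set, since the 10 highest members of each sample held between 30.2% and 36.6% of the members' TPM. Only 6 members had a sphere mean of 1000 TPM or more, and 55 were below 300 TPM.

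Across the members, levels at the stages went together, with Pearson's r of 0.81 on the log2 scale and Spearman's rho of 0.65 between the sphere mean and the bud mean (n = 117 transcripts). This is largely fixed by the rule, which holds the ratio within a factor of 4. The ratio itself was only weakly related to the sphere level, with r of 0.20 on the log2 scale and rho of 0.19. Its relation to the bud level was stronger and negative, with r of -0.42 and rho of -0.54. The points share their libraries and the same stage means enter both measures, so these values are descriptions.

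As background to the whole table, limma on log2(TPM + 1) was fitted to 20332 transcripts whose higher stage mean exceeded 0.5 TPM. At an adjusted p threshold of 0.05 (limma, Benjamini-Hochberg), 38.2% of them were lower and 37.2% were higher at bud. With a higher stage mean above 5 TPM required, 47.0% were lower, so these shares are not matched to the level of abundant genes. Among the members, 116 of 117 were called lower. Both sphere samples lay above both bud samples for 44.3% of the transcripts fitted and for 116 of the 117 members. The members were chosen on this same contrast, so nothing is read from either count.

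The members closest to the limits of the rule show how it divides a continuous range. ENSDART00000156645 was just inside, at 243 and 256 TPM at sphere and 60.2 and 63.7 TPM at bud, a ratio of 4.03. ENSDART00000188379 was just outside, at 222 and 280 TPM at sphere and 62.0 and 64.0 TPM at bud, a ratio of 3.98. At the upper limit, ENSDART00000079019 was inside, at 488 and 576 TPM at sphere and 34.9 and 35.1 TPM at bud, a ratio of 15.2, whereas ENSDART00000061007 was outside with a ratio of 16.2. By level, ENSDART00000114410 was inside with 200.1 and 200.3 TPM at sphere, and ENSDART00000160185 was outside with 199 and 236 TPM. In all, 32 transcripts with a ratio from 4 to 16 had 200 TPM or more in only 1 of the sphere samples. The limit of 2 TPM at bud removed 0 transcripts that met the rest of the rule, under which the bud mean is at least 12.5 TPM.

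The 15 members with a gene symbol spanned the set. Their ratios ran from 4.41 to 15.1, with a median of 7.01, and those of the other 102 members from 4.03 to 15.2, with a median of 6.34. Their highest sphere mean was 871 TPM, so none of the 9 most abundant members was among them. They are the members that could be named and were not selected by function. Symbols are written as the table of gene names gives them, some of them in capitals.

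Among the named members were genes of the germ line and the oocyte. DDX4 (vasa), an RNA helicase of the germ plasm and a defining marker of germ cells, was at 270 and 265 TPM in sphere replicates 1 and 2 and at 16.3 and 19.1 TPM in bud replicates 1 and 2. The stage means were 267 ± 4.07 TPM and 17.7 ± 2.00 TPM (SD, n = 2 each), a ratio of 15.1, which lay between 13.8 and 16.6 over the pairings of single samples. This was the largest ratio of the named members, and 16.3 TPM was the lowest bud value of the whole set. The histone chaperone gene npm2b, of the nucleoplasmin family that remodels chromatin in the egg, was at 310 and 362 TPM at sphere and at 54.9 and 63.9 TPM at bud, a ratio of 5.66. Both genes were lower in both bud samples than in either sphere sample, as were 116 of the 117 members, chosen on this contrast. The share was 44.3% of all transcripts fitted. At bud, npm2b stayed above the members' median in both samples, whereas DDX4 was far below it.

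For comparison, the list of oocyte and germ plasm genes held 33 genes, of which 5 had a symbol in the table. The 3 that were not members were also lower at bud (limma, adjusted p below the threshold of 0.05 for each). NANOS3, a translational repressor of germ cells, was at 132 and 184 TPM at sphere and at 12.9 and 15.7 TPM at bud, a ratio of 11.1, and was not a member because of its level. The germ granule gene tdrd7a was at 96.5 and 139 TPM and then at 3.99 and 7.17 TPM. ZAR1L, a relative of the gene Zar1 that mouse eggs need at the oocyte-to-embryo transition, was at 232 and 218 TPM and then at 2.95 and 3.79 TPM, a ratio of 66.8. Over all transcripts fitted, 38.2% were lower at bud, a share that is not matched to the level of these genes.

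A second pair of named members belongs to families that act on mRNA tails. The gene parn encodes the poly(A)-specific ribonuclease, a deadenylase studied in Xenopus oocyte maturation. It was at 344 and 410 TPM at sphere and at 40.2 and 44.5 TPM at bud, with means of 377 ± 46.5 and 42.3 ± 3.07 TPM (SD, n = 2 each) and a ratio of 8.90. The gene btg3 encodes a protein of the BTG/Tob family, several members of which bind the CCR4-NOT deadenylase in mammalian cells. It was at 397 and 421 TPM at sphere and at 50.1 and 40.2 TPM at bud, a ratio of 9.05. The ranges of these ratios over single samples overlapped, from 7.73 to 10.2 for parn and from 7.92 to 10.5 for btg3. Neither was on the list of mRNA turnover and translational control genes, and they were grouped after their names were seen. Of the 32 genes on that list, only patl1 and KHSRP had a symbol here. The decapping factor gene patl1 was lower at bud, at 175 and 191 TPM against 63.8 and 61.6 TPM (adjusted p = 8.78e-05, limma). KHSRP, an RNA-binding decay factor, was at 579 and 538 TPM at sphere and at 445 and 532 TPM at bud and did not pass (adjusted p = 0.189, limma).

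In the cell cycle, CDC6, which loads the replicative helicase onto origins, was a member, at 316 and 303 TPM at sphere and at 58.3 and 64.7 TPM at bud, a ratio of 5.03. FBXW11, which was not on the cell cycle list and was placed here after its name was seen, encodes a substrate receptor of a ubiquitin ligase that degrades cell cycle and signalling proteins. It was at 282 and 333 TPM and then at 63.3 and 58.2 TPM, a ratio of 5.06. The lowest sphere value of each of the 2 genes was above 4 times its highest bud value. The rule sets the means at least this far apart, and over the members this lowest ratio had a lower quartile of 4.54. Of the 52 listed cell cycle genes, 6 had a symbol, and of the 5 that were not members 3 were lower and 1 was higher at bud (limma, adjusted p threshold 0.05), where 38.2% and 37.2% of all transcripts fitted were lower and higher.

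These other cell cycle genes spread to both sides of CDC6. The mean of CCNA1, which encodes the germ-line form of cyclin A in mammals, was 574 ± 78.5 TPM (SD, n = 2) at sphere and 3.70 ± 0.186 TPM (SD, n = 2) at bud, a ratio of 155 (adjusted p = 1.4e-05, limma). The ratio was 2.85 for the kinase gene CDK2 and 2.11 for the mitotic kinase gene plk1. PCNA, the sliding clamp of DNA polymerases, was higher at bud, with 706 and 792 TPM at sphere and 1027 and 1137 TPM at bud (adjusted p = 0.00746, limma). The phosphatase gene cdc25d did not pass, at 0.480 and 1.09 TPM at sphere and at 1.34 and 1.38 TPM at bud (adjusted p = 0.154, limma).

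The next named members were grouped after their names were seen and belong to no list. The most abundant of all 15, zfand5b, encodes a zinc finger protein whose relative in mammals binds ubiquitin and the proteasome. It was at 818 and 923 TPM at sphere and at 101 and 119 TPM at bud, with means of 871 ± 74.3 and 110 ± 13.0 TPM (SD, n = 2 each), a ratio of 7.92. HYOU1, a chaperone of the endoplasmic reticulum, was at 369 and 405 TPM and then at 65.7 and 66.1 TPM, a ratio of 5.87.

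SOD1, the cytosolic superoxide dismutase, was at 223 and 302 TPM and then at 34.9 and 32.6 TPM, a ratio of 7.78. Its sphere replicates differed most among the named members, by a factor of 1.35, and its ratio over single samples ran from 6.40 to 9.27. In all 3 of these genes both bud samples were below both sphere samples. The rule all but fixes this, which held for 116 of the 117 members and 44.3% of all transcripts fitted.

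The remaining named members were a mixed group. DCTPP1, a pyrophosphatase that removes altered nucleotides from the pool, was at 277 and 330 TPM at sphere and at 43.8 and 42.7 TPM at bud, a ratio of 7.01. ING2, a reader of methylated histone tails in a deacetylase complex, was at 240 and 283 TPM and then at 57.7 and 60.8 TPM, the smallest ratio of the named members at 4.41. The tight junction gene oclna, for occludin, was at 302 and 323 TPM and then at 29.6 and 33.9 TPM, a ratio of 9.83. No role is given here for the other two, zgc:112980 with a ratio of 5.92 and si:ch211-266i6.3 with a ratio of 10.1. The values of zgc:112980 were 391 and 385 TPM at sphere and 66.0 and 65.2 TPM at bud, and those of si:ch211-266i6.3 were 266 and 327 TPM and then 32.3 and 26.3 TPM.

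In the order of the ratio, neighbours among the named members could mostly not be separated. The ranges over single samples overlapped for 12 of the 14 neighbouring pairs. The exceptions were a step between zgc:112980, at most 6.00, and DCTPP1, at least 6.32, and a step between si:ch211-266i6.3, at most 12.4, and DDX4, at least 13.8. With 2 samples per stage, these ranges cover the samples measured and are not confidence intervals.

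**Figure D3:**
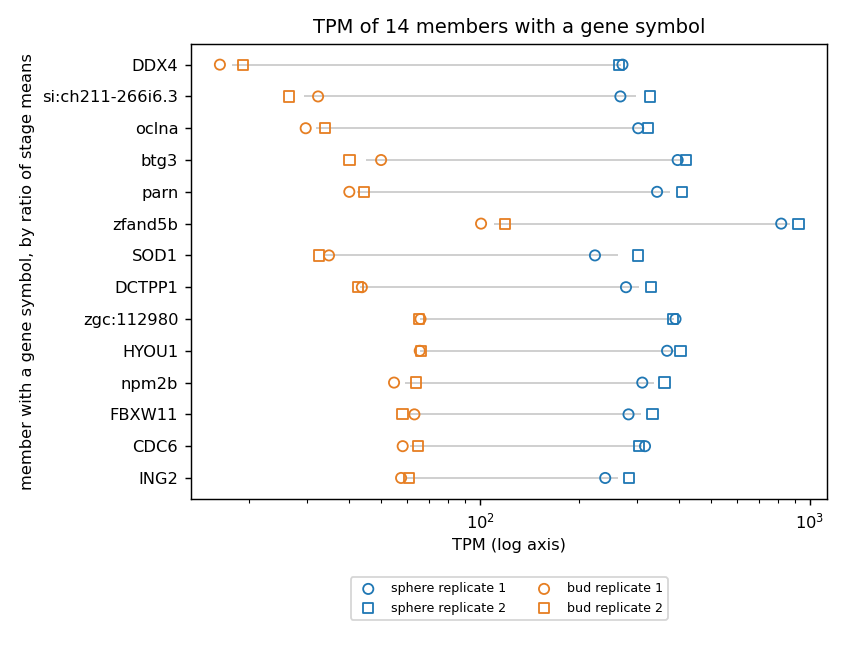
TPM (horizontal, log axis) of 14 of the 15 members with a gene symbol in each of the 4 samples, ordered from the smallest ratio of stage means at the bottom (ING2, 4.41) to the largest at the top (DDX4, 15.1). Blue symbols are sphere samples, orange symbols are bud samples, circles are replicate 1 and squares replicate 2, and grey lines join the stage means. In every gene shown both sphere samples lie to the right of both bud samples. This held for 116 of the 117 members, which were chosen on this contrast, and for 44.3% of all transcripts fitted.

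None of the listed ribosomal protein, histone or mitochondrial respiration genes with a symbol was a member. All 5 ribosomal protein genes with a symbol were higher at bud (limma, adjusted p threshold 0.05), with a median log2 change of 2.06, and 3 of them were among the 718 abundant sphere transcripts. Both histone genes were higher at bud. Of the 11 respiration genes, 5 were higher and 1 was lower, where 37.2% of all transcripts fitted were higher and 38.2% were lower. Of 40 early zygotic genes, 2 had a symbol. The apelin receptor gene aplnrb was lower at bud with a log2 change of -0.92 (adjusted p = 0.00242, limma). The homeobox gene ved was higher with a log2 change of 3.25 (adjusted p = 0.00346, limma). The sphere replicates of ved were uneven, at 43.9 and 11.4 TPM, against 212 and 237 TPM at bud. None of 10 enveloping layer genes had a symbol.

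The most abundant members had no symbol. ENSDART00000140480 was at 4181 and 5063 TPM at sphere and at 553 and 353 TPM at bud, a ratio of 10.2. ENSDART00000063357 was at 1933 and 2232 TPM and then at 317 and 360 TPM, a smaller ratio of 6.15. ENSDART00000171798 was at 1833 and 2100 TPM and then at 166 and 113 TPM, a ratio of 14.1. In ENSDART00000140480 and ENSDART00000171798 bud replicate 1 was the higher, by factors of 1.56 and 1.47.

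ENSDART00000052185 was at 1739 and 1825 TPM at sphere and at 163 and 161 TPM at bud, a ratio of 11.0. ENSDART00000054026 was at 1140 and 1221 TPM and then at 94.4 and 94.5 TPM, a ratio of 12.5. These 2 transcripts combined a high level with close replicates at both stages. The next in level at sphere were ENSDART00000004716, ENSDART00000140695 and ENSDART00000169404, with sphere means of 977, 967 and 966 TPM and ratios of 5.60, 4.39 and 4.20, respectively. Of these, ENSDART00000140695 and ENSDART00000169404 were also among the 5 highest members at bud, with means of 220 and 230 TPM. The ratio of ENSDART00000169404 ran from 3.06 to 5.69 over single samples, which reaches below the limit of 4.

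At the high end of the ratio, ENSDART00000079019 and DDX4 were followed by ENSDART00000006549, at 425 and 550 TPM at sphere and 33.0 and 32.8 TPM at bud, a ratio of 14.8. ENSDART00000150394, with 518 and 442 TPM and then 26.4 and 38.6 TPM, also had a ratio of 14.8. At the low end, ENSDART00000112488, ENSDART00000032344, ENSDART00000043774 and ENSDART00000045038 had ratios of 4.04, 4.14, 4.17 and 4.18. All of these had sphere means below 300 TPM and bud means from 61.3 to 72.8 TPM.

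In ENSDART00000192091 the stages overlapped. It was at 5863 TPM in sphere replicate 1 and at 764 TPM in sphere replicate 2, and at 174 TPM in bud replicate 1 and 884 TPM in bud replicate 2. Bud replicate 2 thus lay above sphere replicate 2, and the ratio over single samples ran from 0.864 to 33.7 around the ratio of means of 6.26. It was the highest member in sphere replicate 1 and in bud replicate 2, where it made up 10.6% and 10.7% of the members' TPM. Without it, the members held 4.93% and 5.42% of the TPM in sphere replicates 1 and 2 and 0.745% and 0.736% in bud replicates 1 and 2. Such unevenness at sphere was also found in abundant transcripts outside the set. In sphere replicates 1 and 2, ENSDART00000186761 was at 4772 and 760 TPM and ENSDART00000192954 at 2348 and 260 TPM. Overlapping stages were not particular to the member either. ENSDART00000180113, outside the set, was at 2113 and 236 TPM at sphere and at 289 and 865 TPM at bud.

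The other members varied far less between replicates than ENSDART00000192091. The median factor between replicates was 1.13 at sphere and 1.10 at bud. It was 1.08 at both stages for the other abundant sphere transcripts, and 1.21 and 1.14 for all transcripts fitted with values above 0. The median of 6.37 between the stages lies in the range set by the rule, so nothing is read from the contrast. Replicates differed by more than 2-fold for 2 of the 117 members at sphere and 1 at bud, and by more than 1.5-fold for 5 and 4. Of the other abundant sphere transcripts, 7 of 601 at sphere and 12 of 600 at bud exceeded 2-fold, and 27 and 25 exceeded 1.5-fold. Over all transcripts fitted with values above 0, 4908 of 19055 at sphere and 3454 of 19726 at bud exceeded 1.5-fold. Besides ENSDART00000192091, ENSDART00000150691 was uneven at sphere, at 467 and 225 TPM, with 19.1 and 27.7 TPM at bud and a ratio of 14.8. ENSDART00000063318 was at 499 and 301 TPM at sphere and ENSDART00000078423 at 283 and 444 TPM. ENSDART00000013506 was higher in replicate 2 at both stages, at 384 and 603 TPM and then at 37.4 and 58.4 TPM, a ratio of 10.3 that ran from 6.57 to 16.1 over single samples. ENSDART00000065817 was even at sphere, at 698 and 704 TPM, and uneven at bud, at 65.4 and 106 TPM.

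**Figure D4:**
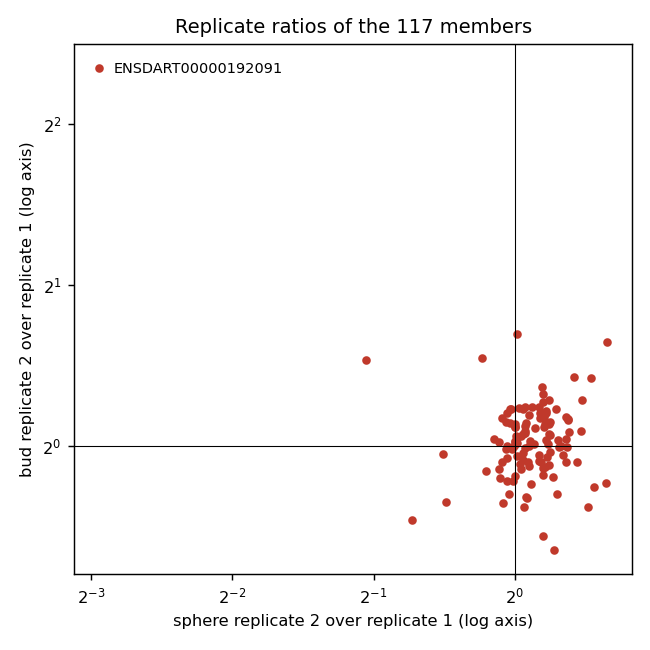
TPM in replicate 2 over TPM in replicate 1 at sphere (horizontal, log axis) and at bud (vertical, log axis) for the 117 members, 1 point each, with black lines at equal replicates. ENSDART00000192091 lies far to the upper left, at 0.130 at sphere and 5.09 at bud, the other members lie near the crossing, and 88 of the 117 points are to the right of the vertical line.

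The sphere replicates also differed in a common direction over the set. Of the 117 members, 88 (75.2%) were higher in sphere replicate 2, with a median ratio of replicate 2 to replicate 1 of 1.07, and among the named members 12 of 15 were. Over all transcripts fitted with a value above 0 in both samples the share was 52.1% and the median ratio 1.01. In the abundant sphere transcripts the share changed with the stage ratio. It was 74.7% of the 75 transcripts with a ratio over 16, 70.9% of the 148 with a ratio of 2 to 4, 54.9% of the 304 within a factor of 2, and 40.5% of the 74 that were more than 2 times higher at bud. The classes with lower levels at bud thus had the larger shares. The sphere values enter both the classes and these shares. What moved with this difference between the sphere replicates was not tested. At bud, 57.3% of the members were higher in replicate 2, against 52.7% of all transcripts fitted and 65.5% of the 600 other abundant sphere transcripts with a value above 0 in both bud samples. By class, that share was 66.2% for ratios over 16, 70.9% for ratios of 2 to 4, 68.1% within a factor of 2 and 43.2% for transcripts more than 2 times higher at bud.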

How the data were processed

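Total RNA from whole zebrafish embryos was sequenced in 4 libraries, 2 at sphere (4 hpf) and 2 at bud (10 hpf), with samples assigned to stage and replicate from their titles. The authors deposited TPM per transcript. According to the methods and labels, reads were trimmed with Trim Galore 0.6.4 and quantified against 1 principal isoform per protein-coding gene of GRCz11. The methods name Kallisto in one section and RSEM in another, so which of them gave the table is not settled. They also count fewer transcripts in this reference than the 24573 deposited, a number that a figure legend of the study gives for all reference transcripts. This difference is not settled either. TPM are relative and keep no read counts, so counting precision is not given here.

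The rule was applied to the TPM as deposited. Stages were compared with limma 3.58.1 (R 4.3.3, trend, 2-sided) on log2(TPM + 1) for transcripts whose higher stage mean exceeded 0.5 TPM, a scale which understates the change of low transcripts. P-values were adjusted by Benjamini-Hochberg over all transcripts fitted, and the procedure was tested on simulated data whose noise depended on level alone. Transcripts with unusually uneven replicates were not simulated. Far fewer transcripts were changed in the simulation than were called here, and none of them at a low level. It therefore does not settle how the calls behave in these data. No count model was fitted. Python 3.11.15, pandas 2.3.3, scipy 1.17.1 and numpy 2.4.6 were used for all other values. The p-values set the difference between stages against the spread between pools of embryos, moderated over all transcripts fitted. With 2 pools per stage, much of that spread is borrowed from other transcripts. The methods say that replicates for tRNA sequencing were collected on different days, and that the RNA sequenced here was of the same batch.

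The files do not pair transcripts with genes. The study's table of genes lists the mean TPM of each gene at both stages, and a gene was paired with the transcript whose means equalled both to 6 significant digits. Of 1998 genes read, 1643 were above 0.5 TPM and each matched exactly 1 transcript, and 1580 of these had a symbol in the gene name table. The rest of that table was not analysed here, and no sequences or coordinates were used.

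Members named in the text were the 10 highest at sphere, the 5 largest and 5 smallest ratios, the 5 highest at bud, the 5 with the largest replicate differences at each stage, those next to each limit, and the members with a symbol. Other genes came from the gene lists. The members and lists were chosen with earlier results of these data known. The values of 1 member with a symbol are not reported here, although it is included in the counts and medians over the set.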

Additional observations from a re-analysis of the deposited data

How the results depend on the processing

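The number of members depended on the level required at sphere, being 433 with at least 100 TPM and 30 with at least 400 TPM in both sphere samples. It was 126 with stage means in place of both replicates, 78 with a ratio of 4 to 8, and between 116 and 145 when each replicate was left out. With median-of-ratios scaling it was 106, of which 104 were among the 117. The median ratio of 6.37 became 6.05 with median-of-ratios scaling, 6.01 with quantile normalization, and 6.22 to 6.63 when each replicate was left out. The share of TPM at sphere, 5.50%, became 5.26% when the 100 most abundant transcripts were left out of set and total, and that at bud, 0.793%, became 0.871%. Without ENSDART00000192091, an alternative chosen after seeing the data, the shares were 5.17% and 0.740%, and leaving out each replicate gave 5.49% to 5.51% and 0.762% to 0.824%. Counts of all transcripts stayed within 1.5 times of 7772 lower and 7559 higher at bud under every alternative run, from 5869 to 7824 lower and from 5331 to 7770 higher. With the replicate number as a block, 7824 were lower and 7600 higher. The share of fitted transcripts lower at bud rose with a higher filter, and it fell about as far when either bud replicate was left out. With a higher stage mean above 5 TPM, 14615 transcripts were fitted and 47.0% of them were lower at bud, against 38.2% in the main fit. The number higher at bud was then 5331. The replicate differences of the stages correlated at 0.09 over transcripts. By the methods, replicates of the batch used came from different days. The sources used here do not say that a replicate number marks the same day at both stages. The members were chosen on this contrast, so their own calls under these fits say nothing about stability. With 2 replicates per stage and no read counts in the table, the data limit what can be said of single members to differences well beyond those between replicates.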
